A study of Mus musculus with 768 samples.

Results

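Brachyury-positive cells were single mouse cells in which the gene T was above 0 at 18, 24 or 30 h after the induction of a motor neuron programme. The cells were chosen by the measured level of T, among cells in which at least 2000 genes were detected (kept cells), and cells with T at 0 at the same time points were the comparison. This gave 58 positive and 110 negative cells out of 168 kept cells, in a series of 768. There were 22, 18 and 18 positive cells at 18, 24 and 30 h, against 34, 37 and 39 negative cells. The values of T are given as a description and without a test.

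All cells came from embryonic stem cells of the strain Ainv15(iNgn2.Isl1.Lhx3.V5), grown as embryoid bodies that were formed 2 days before doxycycline at 3 µg/ml switched on a cassette of Ngn2, Isl1 and Lhx3. Positive and negative cells of one time point therefore share the line, the cassette and the treatment. Viable cells were sorted singly into plates, 96 per time point, and their RNA was read by SMART-Seq2, a full-length method without molecular identifiers. The labels name no separate cultures, so each time point is 1 sample and the 3 time points are the only pairs of positive and negative means. The pairs are not replicates of 1 condition and may come from 1 culture. The p-values below set the size of the mean difference against its spread over the 3 time points, and measure no spread between cultures. In the limma test used below, a gene's spread over these times is also moderated by that of other genes.

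Brachyury is the founding T-box transcription factor. In the mouse embryo it marks the primitive streak, the nascent mesoderm and the notochord, and is known to be needed for posterior mesoderm. Nodal, a ligand of the transforming growth factor beta family, acts in the epiblast with its co-receptor Tdgf1 (Cripto), and it switches on its own gene and those of its secreted inhibitors Lefty1 and Lefty2. Nodal, Wnt and Fgf signals together are known to set up the streak, whereas the induced Ngn2, Isl1 and Lhx3 drive embryonic stem cells towards spinal motor neurons.

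Of 9 Nodal and Bmp genes tested, 6 had higher means in positive than in negative cells at each of the 3 time points, among them Nodal, its co-receptor and its inhibitors. Levels are in TPM, which gives every cell the same total, and a difference is the log2 ratio of (mean TPM + 1) in positive over negative cells, averaged over the 3 times. Lefty1, Lefty2, Tdgf1 and Nodal differed by 2.91, 2.81, 2.43 and 1.87 on that scale, and Nanog and Fgf5, factors of the pluripotent epiblast, by 1.98 and 1.58. Neuronal genes had lower means in the positive cells, among them Rtn1 with a difference of -2.26, Tubb3 with -1.81 and the neurofilament gene Nefl with -2.44. The transgene factors Lhx3 and Isl1 were above 0 in similar shares of both groups, and few cells of either group held Tbx6 or Msgn1, mesoderm genes that follow Brachyury in the embryo.

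None of the 8119 genes tested passed an adjusted p of 0.05 (0% called) in limma's paired test with the time point as a block and Benjamini-Hochberg adjustment. The smallest adjusted p, 0.0666, was that of Rtn1 and of Tdgf1. At an unadjusted p of 0.05, 711 genes differed (8.76%): 190 were higher in positive cells (2.34%) and 521 lower (6.42%). A 2-fold difference at every time point was reached by 18 genes higher in positive cells (0.222%) and 70 genes lower (0.862%). The call depended on how cells were averaged: taking the mean of log2(TPM + 1) over cells in place of the log2 of the mean let 15 genes pass, 13 of them higher in positive cells, among them Lefty1, Lefty2, Nodal, Tdgf1, Nanog, Fgf5, Chac1, Slc7a7, Slc7a3 and Trh. The 2 lower ones were Rtn1 and Tmsb4x.

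T was above 0 in 39.3% of the kept cells at 18 h (95% interval 26.5 to 53.2, exact Clopper-Pearson), in 32.7% at 24 h (20.7 to 46.7) and in 31.6% at 30 h (19.9 to 45.2). Intervals cover counting error only. Before that it was rare: 1 of 37 kept cells at 0 h, 4 of 53 at 6 h and 0 of 52 at 12 h, where the exact upper limit is 6.85% and a limit of 3 cells is 5.77%. After it, 8 of 44 kept cells at 36 h and 2 of 14 at 48 h had T above 0.

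Among the positive cells the level of T spread widely. At 18 h it lay between 0.80 and 174 TPM with a median of 18.3, at 24 h between 1.70 and 510 TPM with a median of 44.0, and at 30 h between 1.87 and 614 TPM with a median of 77.5. The mean over positive cells was 47.7 ± 56.8 TPM at 18 h (SD over cells, n = 22), 111 ± 143 TPM at 24 h and 156 ± 192 TPM at 30 h (n = 18 each). A few cells held a large part of the message, as the 3 highest cells of each time point carried 45.4%, 55.0% and 55.1% of all T at 18, 24 and 30 h. Just inside the rule, the 3 lowest positive cells of 18 h had 0.80, 1.17 and 1.48 TPM, those of 24 h had 1.70, 2.19 and 2.66 TPM and those of 30 h had 1.87, 2.78 and 2.97 TPM, and every negative cell was at 0. The level reached at least 10 TPM in 14, 13 and 15 positive cells at the 3 times. On the other threshold, the shallowest kept cells had 2109, 3317 and 2056 genes at 18, 24 and 30 h, and the deepest cells left out had 1959, 1568 and 1946. Of the 40, 41 and 39 cells left out at these times, 4, 1 and 1 had T above 0.

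**Figure D1:**
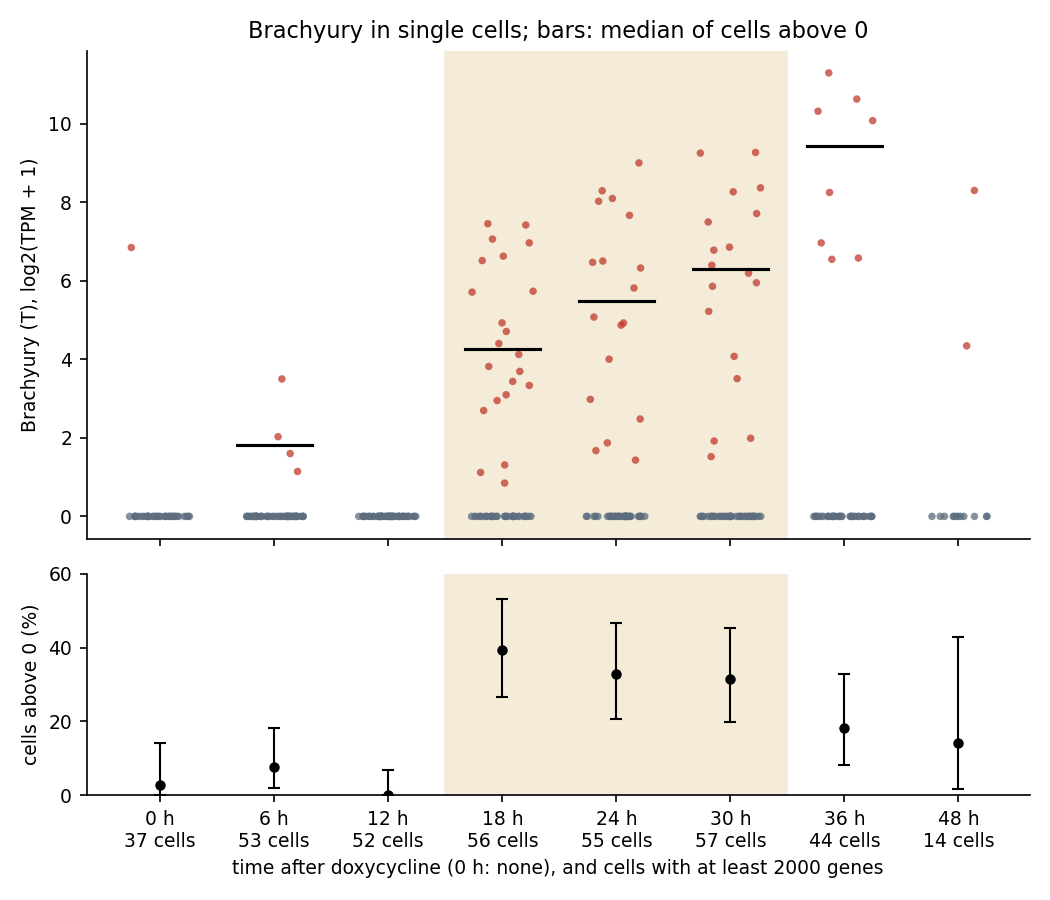
Brachyury in single cells over the time course: log2(TPM + 1) of T in each kept cell against hours after doxycycline, with red points for cells above 0, grey points for cells at 0 and bars for the median of cells above 0, over the share of kept cells above 0 with its exact 95% interval. The share is 39.3%, 32.7% and 31.6% in the shaded window from 18 to 30 h, and the highest cell in that window has 614 TPM.

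Positive cells were deeper at 2 of the 3 times. TPM keeps no depth, so the number of genes above 0 stands in for it. Its median was 7940.5, 7057.5 and 6395 in positive cells at 18, 24 and 30 h, against 6959.5, 6581 and 6586 in negative cells. The mean of the 3 differences in medians was 422 genes, with an exact two-sided sign-flip p of 0.5, where 3 pairs cannot go below 0.25. Hprt, a housekeeping gene, was above 0 in 75.9% of positive and 57.3% of negative cells, so shares of cells above 0 are to be read against that gap, and its part in them was not tested. The mean level of Hprt differed by 0.15 (adjusted p 0.91, limma) and that of Actb by -0.07 (adjusted p 0.957). The cells of 18, 24 and 30 h share low Sod1, with means of 594, 807 and 518 TPM, as do those of 6 h with 731 TPM, whereas means at the other 4 times were between 19553 and 65262 TPM, and kept cells at 36 h had a median of 2894 genes. Library batches are not assigned to cells in the sources used here.

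Nodal was above 0 in 46 of 58 positive cells, 79.3% (66.6 to 88.8), and in 39 of 110 negative cells, 35.5% (26.6 to 45.1). Its level at 18 h ran from 0 to 205 TPM with a median of 15.6 in positive cells, and from 0 to 62.0 TPM with a median of 0 in negative cells. At 24 h the positive cells ran from 0 to 173 TPM with a median of 63.9 and the negative cells from 0 to 142 TPM with a median of 0. At 30 h the highest value was in a negative cell, since positive cells ran from 0 to 199 TPM with a median of 31.2 and negative cells from 0 to 254 TPM with a median of 0. The groups overlapped at every time, and the medians differed because most negative cells were at 0. The mean levels gave log2 differences of 1.80, 2.05 and 1.74 at 18, 24 and 30 h, an average of 1.87 with a standard error of 0.28 (adjusted p 0.127, limma).

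Lefty1 and Lefty2, the secreted feedback inhibitors of Nodal, showed the largest average differences of the 20 named genes that were higher in positive cells. Lefty1 averaged 199 ± 294, 290 ± 404 and 304 ± 557 TPM in positive cells at 18, 24 and 30 h, against 55.1 ± 184, 11.1 ± 24.6 and 61.1 ± 209 TPM in negative cells (SD over cells). Its highest positive cells had 1299, 1313 and 1968 TPM and its highest negative cells 1007, 106 and 1114 TPM at the 3 times. So at 24 h the highest positive cell was above the highest negative cell by the widest margin, and at 18 and 30 h single negative cells reached levels near those of the positive ones. Lefty1 was above 0 in 47 of 58 positive and 36 of 110 negative cells, and its log2 differences of 1.83, 4.58 and 2.30 averaged 2.91 with a standard error of 0.47 (adjusted p 0.158, limma).

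Lefty2 averaged 90.4 ± 167, 70.8 ± 97.3 and 50.0 ± 85.0 TPM in positive cells at 18, 24 and 30 h, against 24.6 ± 82.8, 3.06 ± 8.55 and 8.40 ± 29.7 TPM in negative cells. It was above 0 in 42 positive and 37 negative cells. The average difference was 2.81 with a standard error of 0.43 (adjusted p 0.134, limma). With negative cells matched one to one to the positive cells on the number of genes, its difference was 4.05 (adjusted p 0.0326, limma). That difference was the largest of its 18 alternatives, over which it ranged between 1.96 and 4.05. The adjusted p ranged between 0.000300 and 0.792 (limma), and Lefty2 passed in 5 of the 18.

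Tdgf1, the co-receptor through which Nodal signals, was the least often detected of the 4. Its mean levels were 90.7 ± 177, 48.6 ± 73.0 and 48.8 ± 97.5 TPM in positive cells at 18, 24 and 30 h, against 17.7 ± 64.3, 7.02 ± 29.4 and 8.63 ± 50.0 TPM in negative cells. The log2 differences were 2.30, 2.63 and 2.37, an average of 2.43 with a standard error of 0.28 (adjusted p 0.0666, limma). It was above 0 in 29 of 58 positive and 19 of 110 negative cells.

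Counted within cells, at least 3 of Nodal, Lefty1, Lefty2 and Tdgf1 were above 0 in 41 of 58 positive cells, 70.7% (57.3 to 81.9), and in 16 of 110 negative cells, 14.5% (8.55 to 22.5). The 4 genes were chosen for this count after their values had been seen. By time, the share was 72.7%, 77.8% and 61.1% in positive cells at 18, 24 and 30 h, against 20.6%, 8.11% and 15.4% in negative cells. All 4 were above 0 in 19 positive and 3 negative cells, and none was above 0 in 3 positive and 36 negative cells.

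**Figure D2:**
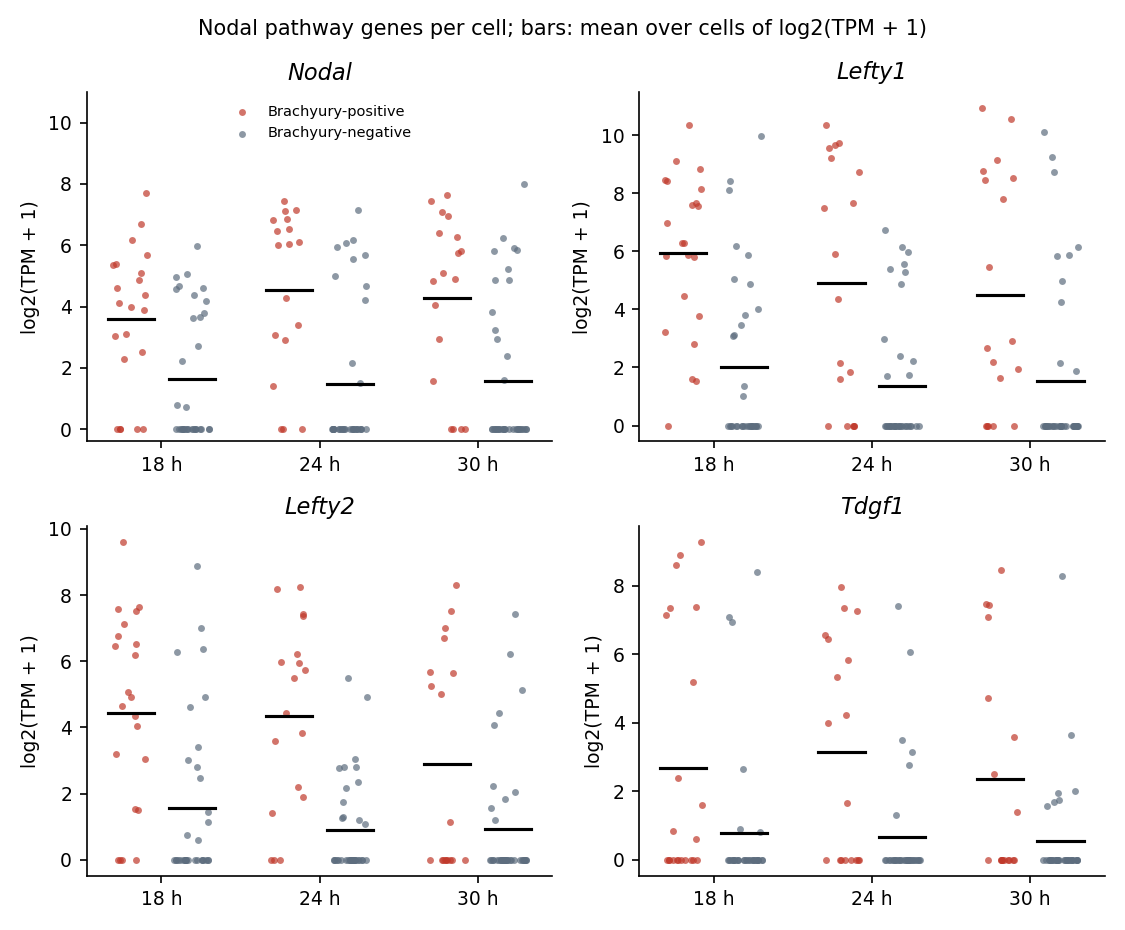
Nodal, Lefty1, Lefty2 and Tdgf1 in single cells: log2(TPM + 1) of each cell, with positive cells in red on the left and negative cells in grey on the right at 18, 24 and 30 h, and bars for the mean over cells of log2(TPM + 1). The bar of the positive cells is above that of the negative cells for each gene at each time, and most negative cells lie at 0.

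Of the other Nodal and Bmp genes tested, Foxh1, the DNA-binding partner of Smad proteins on Nodal targets, had differences of -0.96, 1.02 and -0.25, and Id1, Id2 and Id3, targets of Bmp signals, averaged -0.49, 0.30 and 0.11.

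The list of Nodal and Bmp genes had 13 members, of which 9 passed the filter on low values. Their median difference was 1.60, against -0.07 for all 8119 genes, and it was 0.85, 1.02 and 1.74 at 18, 24 and 30 h. At 2-fold averaged over the 3 times, 5 of the 9 were higher (background 1.39%) and 0 lower (background 5.14%), and 4 of the 9 were 2-fold higher at every time (background 0.222%). A higher mean at each time was found for 6 of the 9 (background 11.7%). Without the filter the median of all 13 was 0.46, and without 30 h the median of the tested members was 0.88. The higher members were known from earlier results of these data when the list was drawn up.

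The promoters of T, Nodal and Tdgf1 are shown because these genes differed together. The 250 bases before the annotated start, from RefSeq on GRCm38.p6 and written 5′ to 3′ along the gene's strand, lie at chr17:8434173-8434422 (plus strand) for T, chr10:61417722-61417971 (plus) for Nodal and chr9:110946159-110946408 (minus) for Tdgf1. Capitals mark the T-box core ACACCT or its reverse complement AGGTGT.
T: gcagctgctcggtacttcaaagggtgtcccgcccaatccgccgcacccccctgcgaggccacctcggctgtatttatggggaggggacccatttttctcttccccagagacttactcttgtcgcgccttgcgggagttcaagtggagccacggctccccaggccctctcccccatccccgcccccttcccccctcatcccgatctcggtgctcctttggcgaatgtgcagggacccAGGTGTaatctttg
Nodal: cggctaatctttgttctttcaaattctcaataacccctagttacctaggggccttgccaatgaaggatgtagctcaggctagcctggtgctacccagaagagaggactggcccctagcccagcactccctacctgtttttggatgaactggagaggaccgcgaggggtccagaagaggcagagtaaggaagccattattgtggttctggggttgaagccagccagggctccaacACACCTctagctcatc
Tdgf1: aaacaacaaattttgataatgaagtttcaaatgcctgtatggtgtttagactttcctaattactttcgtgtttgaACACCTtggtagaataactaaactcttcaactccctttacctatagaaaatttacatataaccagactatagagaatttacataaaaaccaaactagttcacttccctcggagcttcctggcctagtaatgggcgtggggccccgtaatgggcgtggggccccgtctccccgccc
Each of the 3 windows held the core in 1 place, 14 bases before the start in T, 16 in Nodal and 175 in Tdgf1, on either strand. Of 32851 promoter windows of the same length, 11.8% held it, so a match is common. The core was added after 3 longer motifs, searched on both strands, gave no match in these windows: the T-box half-site TCACACCT (1.12% of windows), which contains the core, the TCF/LEF motif CTTTGAT (3.21%) and the FOXH1 motif AATCCACA (0.718%).

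Streak genes other than Nodal and Lefty2 were low in both groups. Fgf8, an Fgf ligand of the streak, was above 0 in 18 of 58 positive cells, 31.0% (19.5 to 44.5), and 4 of 110 negative cells, 3.64% (1.00 to 9.05). Its mean in positive cells was 0.578, 7.16 and 9.69 TPM at 18, 24 and 30 h, against 0.157, 0.190 and 0.0926 TPM in negative cells. Wnt3, the Wnt ligand needed for streak formation, was above 0 in 23 positive and 14 negative cells. Its mean level in positive cells was lower at 18 h (2.39 against 6.45 TPM in negative cells) and higher at 24 h (7.94 against 3.34 TPM) and 30 h (6.32 against 1.39 TPM). Eomes, a T-box factor of the streak and definitive endoderm, was above 0 in 11 positive cells, 19.0%, and 8 negative cells, 7.27%. Mixl1, a homeobox gene of the streak, was above 0 in 8 positive cells, 13.8%, and 8 negative cells, 7.27%. These genes did not pass the filter on low values and were not tested.

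Of 14 streak genes found in the table, 3 passed the filter: Lefty2, Nodal and Amot, whose difference was 0.49 (adjusted p 0.703, limma). Gsc and Mesp1 were at 0 in all 168 cells. Evx1 was above 0 in 2 positive and 0 negative cells, Snai1 in 3 positive and 5 negative cells, and Lhx1 in 3 positive and 7 negative cells.

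Genes of the posterior epiblast were found in a minority of positive cells. Wnt8a was above 0 in 25 positive and 19 negative cells, with an average difference of 1.13 (adjusted p 0.506, limma). Fst, the secreted activin and Bmp antagonist follistatin, was above 0 in 16 positive and 4 negative cells, and Fgf17 in 13 positive and 8 negative cells. Cdx2 and Cdx4, caudal homeobox factors, were at 0 in all cells, and Cdx1 and Cyp26a1 were above 0 in 1 positive cell each, against 1 and 5 negative cells.

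Most listed genes of formed mesoderm, notochord and endoderm were too low to be tested. Of 12 paraxial genes, Dll1 and Dll3, Notch ligand genes that neural progenitors also use, passed the filter, and they differed by -0.11 and -0.57 (adjusted p 0.971 and 0.827, limma). Dll1 was above 0 in 35 of 58 positive and 60 of 110 negative cells, and Dll3 in 30 positive and 50 negative cells. The only tested member was Isl1 of 12 lateral and cardiac genes, Nodal of 8 node and notochord genes and Trh of 11 definitive endoderm genes. Isl1 is also an induced factor, and the values of all 3 stand with their other groups. The members that follow did not pass the filter. Tbx6, a T-box factor of presomitic mesoderm, was above 0 in 5 of 58 positive cells, 8.62% (2.86 to 19.0), and 9 of 110 negative cells, 8.18% (3.81 to 15.0). Msgn1 was above 0 in 1 positive and 0 negative cells, and Meox1 in 2 positive and 5 negative cells. Hand1, Hand2, Foxc2, Shh and Foxj1 were at 0 in all 168 cells, and Noto was above 0 in 1 cell of each group. Sox17 was at 0 in all cells, Foxa2 was above 0 in 1 positive and 0 negative cells, and Cer1 in 6 positive cells, 10.3%, and 11 negative cells, 10.0%. Besides Brachyury, 11 T-box genes were above 0 in some cell, and Mga, a T-box protein that also binds Max, was the only one that passed the filter, with a difference of -0.47 (adjusted p 0.681, limma).

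Pluripotency factors differed unevenly between the groups. Nanog, a core pluripotency factor, averaged 44.1 ± 39.4, 68.9 ± 98.1 and 143 ± 324 TPM in positive cells at 18, 24 and 30 h, against 20.6 ± 42.7, 13.0 ± 30.3 and 23.4 ± 53.5 TPM in negative cells, and 1 positive cell of 30 h had 1398 TPM. The average difference was 1.98 with a standard error of 0.34 (adjusted p 0.174, limma). Pou5f1 (Oct4) was above 0 in 50 of 58 positive and 71 of 110 negative cells, with means of 97.8, 177 and 98.1 TPM in positive cells, against 52.2, 85.5 and 32.8 TPM in negative cells (average difference 1.16, adjusted p 0.254). Nanog and Pou5f1 were both above 0 in 37 positive cells, 63.8% (50.1 to 76.0), and 33 negative cells, 30.0% (21.6 to 39.5).

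Sox2, another core factor and also a neural progenitor gene, had overlapping shares. It was above 0 in 10 of 58 positive cells, 17.2% (8.59 to 29.4), and 29 of 110 negative cells, 26.4% (18.4 to 35.6). Its mean was 3.68, 0.386 and 0.313 TPM in positive cells at 18, 24 and 30 h, against 3.33, 6.45 and 6.17 TPM in negative cells. Of the 13 core pluripotency genes tested, 4 were 2-fold higher in positive cells on average (Tdgf1, Nanog, Pou5f1 and L1td1, background 1.39%) and 0 were lower (background 5.14%). The median of the list was 0.26. Utf1, Zfp42, Dppa4 and Dppa5a had averages between -0.36 and -0.15, and Sall4, Dppa2 and Lin28a between 0.21 and 0.27, none with an adjusted p under 0.724 (limma).

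Fgf5, the marker of the formative and primed epiblast, averaged 108 ± 112, 68.5 ± 129 and 105 ± 122 TPM in positive cells at 18, 24 and 30 h, against 27.6 ± 69.8, 29.6 ± 56.4 and 33.4 ± 53.5 TPM in negative cells. Its average difference of 1.58 had a standard error of 0.26 (adjusted p 0.174, limma). Of 10 formative and primed genes tested, Fgf5, Car4 and Pim2 were 2-fold higher on average, at 1.58, 1.62 and 1.40 (background 1.39%), and 0 were 2-fold lower (background 5.14%). The median of the list was 0.02. Otx2, a homeobox factor of the anterior epiblast, had differences of 0.02, 0.67 and -2.19, and Dnmt3b, a DNA methyltransferase, averaged 0.87 (adjusted p 0.483). Spry2, an inhibitor induced by Fgf signals, averaged 1.18 (adjusted p 0.401, limma). It was the 1 of 5 Fgf feedback genes tested that was 2-fold higher (background 1.39%), and 0 were 2-fold lower (background 5.14%). Fgf15, Etv5, Dusp6 and Fgfr1 averaged 0.87, 0.67, 0.41 and -0.30, and the median of the 5 was 0.67.

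Several genes outside the signalling lists were among the 20 highest. Trh, which encodes thyrotropin-releasing hormone, was above 0 in 40 of 58 positive and 34 of 110 negative cells, and averaged 146, 314 and 333 TPM in positive cells, against 20.9, 95.3 and 249 TPM in negative cells. Its difference was thus 2.74, 1.71 and 0.42 at the 3 times. Chac1, an enzyme that breaks down glutathione, averaged 56.0, 127 and 46.5 TPM in positive cells, against 5.19, 20.0 and 13.3 TPM in negative cells (average difference 2.51, adjusted p 0.127, limma). The amino acid transporter genes Slc7a7 and Slc7a3 and the threonine dehydrogenase gene Tdh differed by 1.74, 1.73 and 2.17. Asns and Atf4, genes of the amino acid response that were chosen after their values were seen, differed by 0.41 and 0.08, and Ddit3 by -0.81 (adjusted p 0.604, 0.957 and 0.561). The carbonic anhydrase genes Car14 and Car4 differed by 2.22 and 1.62, and Car14 was at 0 in all negative cells of 24 h.

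**Figure D3:**
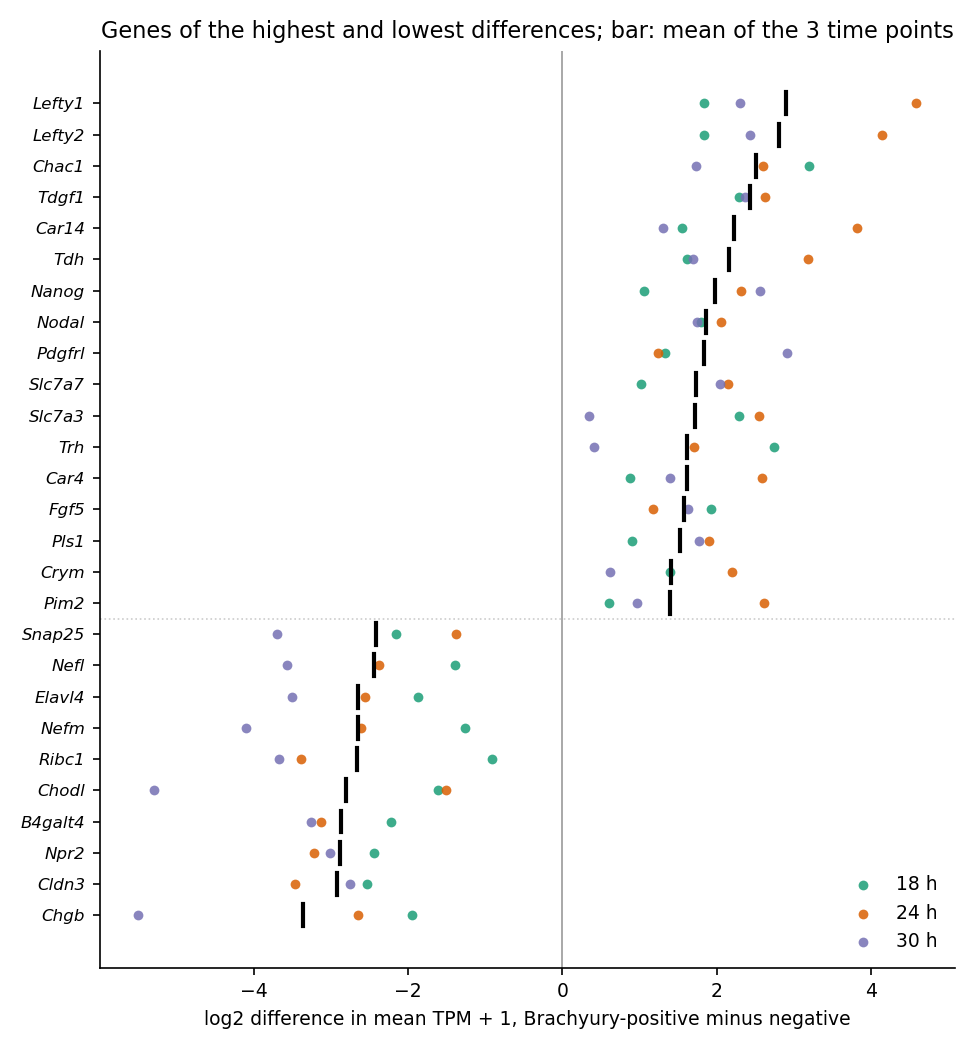
Differences of named genes: log2 ratio of (mean TPM + 1) in positive over negative cells, 1 point for each of 18, 24 and 30 h and a bar for their average. The genes above the dotted line lie above 0 at all 3 times, with Lefty1 highest at 2.91, and the 10 under it lie below 0 at all 3, with Chgb lowest at -3.36, since the genes were chosen for these signs.

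The neuronal genes had the opposite sign. Rtn1, a reticulon enriched in neurons, ran from 0 to 139 TPM with a median of 15.0 in positive cells of 18 h, and from 0 to 1092 TPM with a median of 22.4 in negative cells. At 24 h positive cells ran from 0 to 403 TPM with a median of 9.97 and negative cells from 0 to 2384 TPM with a median of 106. At 30 h positive cells ran from 0 to 285 TPM with a median of 0 and negative cells from 0 to 1549 TPM with a median of 54.5. Every median and every highest value was lower in the positive cells, yet both groups held cells at 0. The average difference was -2.26 with a standard error of 0.25 (adjusted p 0.0666, limma).

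Tubb3, the neuronal beta-tubulin, averaged 51.5 ± 79.7, 73.5 ± 131 and 48.7 ± 108 TPM in positive cells at 18, 24 and 30 h, against 121 ± 179, 290 ± 593 and 234 ± 521 TPM in negative cells (average difference -1.81, adjusted p 0.127, limma). It was above 0 in 20 of 22 positive cells at 18 h, in 11 of 18 at 24 h and in 7 of 18 at 30 h, against 26 of 34, 32 of 37 and 27 of 39 negative cells. The share was thus higher in positive cells at 18 h and lower at the later times. Stmn2, another early neuronal gene, was above 0 in 52 of 58 positive and 91 of 110 negative cells, with a difference in mean level of -0.93 (adjusted p 0.437). Elavl4, an RNA-binding protein gene of differentiated neurons, was above 0 in 11 positive and 34 negative cells and differed by -2.64 (adjusted p 0.174).

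Of 16 pan-neuronal genes tested, out of 18 listed, 10 were 2-fold lower in positive cells on average (background 5.14%) and 0 higher (background 1.39%). Of the 16, 8 were 2-fold lower at every time (background 0.862%). At an unadjusted p of 0.05, 14 were lower (background 6.42%), and 15 had a lower mean in positive cells at each time (background 18.4%). The median difference was -1.46, and it was -1.02, -1.36 and -1.65 at 18, 24 and 30 h. Neurofilament light and medium chains (Nefl, Nefm) and internexin (Ina) differed by -2.44, -2.65 and -1.39, and the helix-loop-helix gene Nhlh1 by -2.18. Crmp1 was the exception in direction, with 0.20 at 18 h.

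Secretory and synaptic genes were also lower on average. Chgb and Chga, granins of dense-core vesicles, differed by -3.36 and -2.23 (adjusted p 0.208 and 0.174, limma), and Chgb was at 0 in all 18 positive cells of 30 h, against a mean of 44.1 TPM in negative cells. Snap25, a protein of synaptic vesicle fusion, differed by -2.41. Of 8 secretory genes tested 5 were 2-fold lower on average (background 5.14%), 3 had a lower mean at every time (background 18.4%), and Trh was the 1 that was 2-fold higher (background 1.39%). The rest of the 10 lowest named genes were the claudin gene Cldn3, the natriuretic peptide receptor gene Npr2, B4galt4, Chodl and Ribc1, with differences between -2.92 and -2.66, and each was above 0 in at most 9 positive cells.

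Proneural and motor neuron genes were less uniform. Of 10 proneural and Notch genes tested, 3 were 2-fold lower on average (background 5.14%), Neurod1 with -1.21, Neurod4 with -1.18 and St18 with -2.06, but Neurod4 was higher in positive cells at 24 h (0.69). Hes1, a Notch target, averaged 0.65. Among 5 motor neuron and cholinergic genes tested, 2 were 2-fold lower on average (background 5.14%) and 0 higher (background 1.39%). These were Mnx1 (Hb9), the motor neuron homeobox gene, and Lmo4. Mnx1 differed by -0.90, -1.27 and -2.20 at 18, 24 and 30 h, and Lmo4 by -0.33, -1.45 and -1.91. Their average differences of -1.45 and -1.23 had adjusted p of 0.451 and 0.412 (limma). Ebf2, Slc18a3 and Chat averaged -0.95, -0.65 and 0.06. Mnx1 was nevertheless above 0 in 23 of 58 positive cells, 39.7%, and 43 of 110 negative cells, 39.1%.

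The induced factors themselves were present in most positive cells. Lhx3 was above 0 in 41 of 58 positive cells, 70.7% (57.3 to 81.9), and 81 of 110 negative cells, 73.6% (64.4 to 81.6), and Isl1 in 63.8% of positive cells (50.1 to 76.0) and 70.9% of negative cells (61.5 to 79.2). Either of them was above 0 in 44 positive cells, 75.9%, and 87 negative cells, 79.1%. Mean levels were lower in positive cells at every time. Lhx3 had 18.0, 19.9 and 10.7 TPM in positive cells and 32.7, 30.2 and 27.0 TPM in negative cells at 18, 24 and 30 h (difference -0.89, adjusted p 0.49, limma). Isl1 had 6.76, 9.03 and 24.2 TPM in positive and 29.1, 20.2 and 48.5 TPM in negative cells (difference -1.34, adjusted p 0.347). Neurog2 was sparse, above 0 in 10 positive and 26 negative cells, and was not tested. Reads of the transgene and of the endogenous genes are not told apart in the table.

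**Figure D4:**
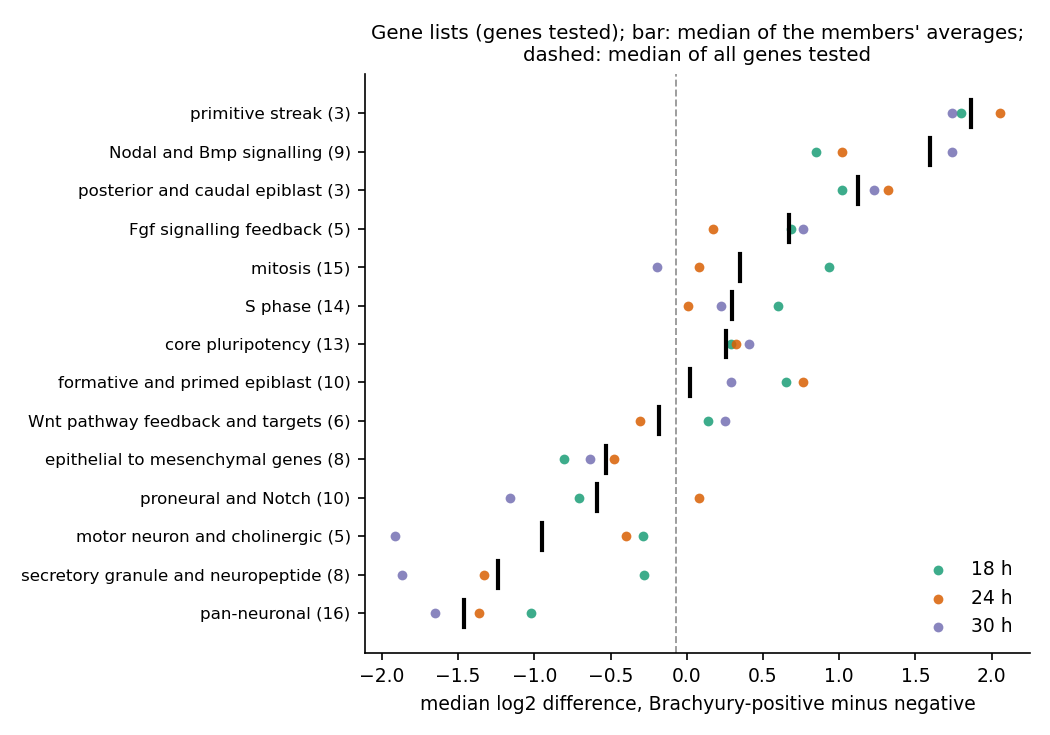
Gene lists in positive against negative cells: for each list with at least 3 genes tested, points for the median log2 difference of its members at 18, 24 and 30 h and a bar for the median of the members' averages. Medians run from 1.87 for 3 streak genes and 1.60 for 9 Nodal and Bmp genes down to -1.46 for 16 pan-neuronal genes, beside -0.07 for all genes tested. Nodal and Lefty2 are members of both the streak list and the Nodal and Bmp list. Without the filter the streak median is 0.50 over 12 genes.

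The medians of the adhesion, Wnt and cell cycle lists were smaller in size than those of the Nodal and pan-neuronal lists. Cdh1, the epithelial cadherin, averaged 0.72 (adjusted p 0.498, limma). The mesenchymal and neural genes Zeb1, Zeb2, Vim and Cdh2 averaged -2.00, -0.89, -0.88 and -0.87. The other members tested, Epcam, Cldn6 and Fn1, averaged -0.06, -0.01 and -0.19. Of these 8 epithelial to mesenchymal genes, 0 were 2-fold higher on average (background 1.39%) and 1 lower (background 5.14%). Their median was -0.53. Snai2 and Twist1 did not pass the filter. Of 6 Wnt feedback and target genes tested, 0 were 2-fold higher (background 1.39%) or lower (background 5.14%) on average. With 6 genes a count of 0 is near these shares. The list median was -0.18, and it was 0.26 when log2 values were averaged over cells. S phase and mitosis genes had medians of 0.30 and 0.35, with 0.93 for mitosis at 18 h and -0.19 at 30 h. On average 0 members of either list were 2-fold higher (background 1.39%) or lower (background 5.14%), which is near these shares. Markers of other cell types were few: Krt8 and Krt18, keratins of simple epithelium, averaged -0.49 and -0.22, and the neural progenitor genes Fabp7 and Pax6 0.45 and -0.27.

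Cell by cell, a mean of log2(TPM + 1) over the 9 Nodal and Bmp genes was 3.49 ± 1.20, 3.76 ± 1.71 and 3.42 ± 1.62 in positive cells at 18, 24 and 30 h, against 1.72 ± 1.51, 1.76 ± 1.21 and 1.61 ± 1.34 in negative cells (SD over cells). The same mean over the 16 pan-neuronal genes was 2.81 ± 1.07, 3.04 ± 1.40 and 2.25 ± 1.36 in positive cells, against 3.11 ± 1.70, 3.96 ± 1.93 and 3.77 ± 1.78 in negative cells. The groups overlapped on both. The highest Nodal values were in a negative cell at 18 h, 5.85 against 5.55 in positive cells, and in positive cells at 24 h and 30 h, 6.61 and 6.55 against 5.42 and 6.18 in negative cells. No p is given for these means, since their genes were chosen with results in view.

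**Figure D5:**
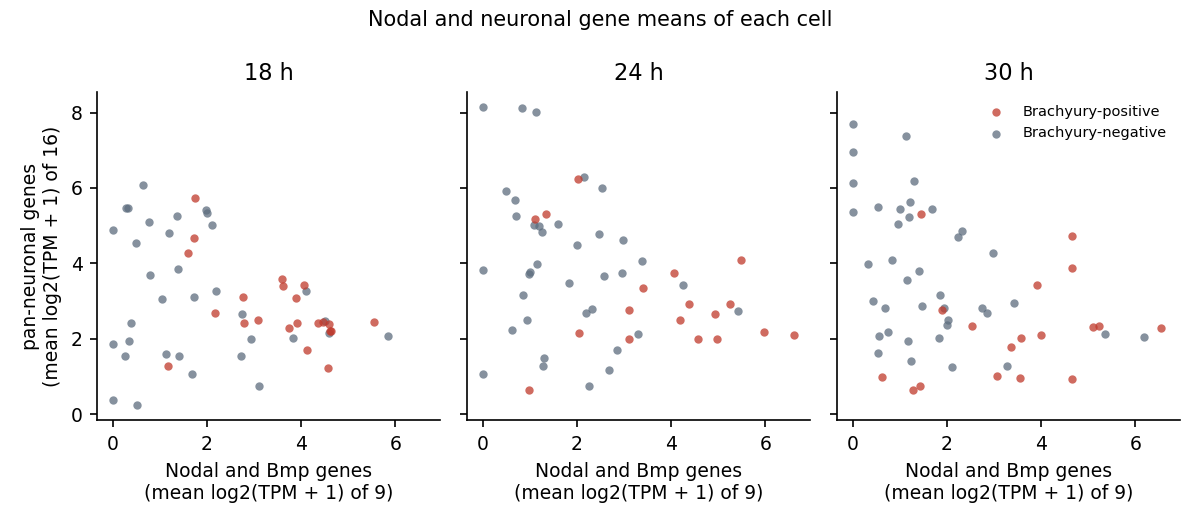
Nodal and neuronal means of each cell: mean log2(TPM + 1) of 9 Nodal and Bmp genes against that of 16 pan-neuronal genes at 18, 24 and 30 h, red for positive and grey for negative cells. Positive cells average 3.49, 3.76 and 3.42 on the Nodal axis and negative cells 1.72, 1.76 and 1.61, and both groups spread over the neuronal axis.

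The likeness of other genes to T over kept cells restates the split, since T divided the cells, and adds no support to it. By Spearman's rho with T, averaged over the 3 times and taken over 56, 55 and 57 cells, the highest values included Lefty1 with 0.53, Lefty2 with 0.50 and Nodal with 0.48. Slc7a7, Trh, Slc7a3, Fgf5 and Tdgf1 followed, between 0.46 and 0.37. These are descriptions, as cells of 1 time point are 1 sample and their values share each cell's depth and its zeros. Among the positive cells alone, where T was graded, the mean rho was 0.49 for Lefty1, 0.41 for Lefty2, 0.40 for Nodal and 0.38 for Fgf5 (n = 22, 18 and 18 cells). It was 0.15 for Tdgf1 and -0.34 for Rtn1. Nodal's value was 0.09 at 18 h, 0.50 at 24 h and 0.61 at 30 h, so its relation to T within positive cells was seen at the later times. The timing differed between genes. Lefty1 and Lefty2 had 0.55 and 0.44 already at 18 h, and Rtn1 had -0.69, -0.25 and -0.09 at 18, 24 and 30 h.

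Cells at 36 h and 6 h were not used by the rule and give a look at the same genes elsewhere. At 36 h, 8 positive cells had a mean T of 880 ± 882 TPM, between 92.3 and 2501, and were set beside 36 negative cells. All 16 pan-neuronal genes were at least 2-fold lower in the positive cells there, where 41.8% of all genes tested were, and their median difference was -3.66 against -0.55 for all genes. These cells came from the shallower libraries with high Sod1, whose part in the values was not tested. Nodal genes were near 0 in both groups, as Nodal was at 0 in all 44 cells, Lefty1 was above 0 in 1 of 8 positive and 5 of 36 negative cells, and the list median was -0.04. Of the 20 highest genes from 18 to 30 h, 5 were at least 2-fold higher and 5 at least 2-fold lower in positive cells of 36 h, with 19.3% of all genes higher. Mixl1 was above 0 in 2 of 8 positive and 2 of 36 negative cells, at means of 139 and 5.29 TPM, and Fgf8 in 2 positive and 0 negative cells. Of other streak genes, Wnt3 and Lhx1 were above 0 in 1 positive and 1 negative cell each. Mesp1 was above 0 in 1 positive and 0 negative cells, and Eomes in 0 positive and 1 negative cell. Evx1, Gsc and Snai1 were at 0 in all 44 cells. At 6 h, 4 positive cells with T between 1.21 and 10.3 TPM were set beside 49 negative cells. Of the 20 highest genes, 9 were at least 2-fold higher (background 9.18%) and 2 at least 2-fold lower (background 19.6%). Of the 10 lowest, 7 were at least 2-fold lower (background 19.6%) and 1 at least 2-fold higher (background 9.18%). Of the 7, Cldn3, Npr2, B4galt4, Chodl and Elavl4 were at 0 in all 4 positive cells. They were above 0 in only 9, 8, 6, 5 and 11 of 49 negative cells, at means between 1.73 and 5.83 TPM. With 4 positive cells, such low genes can be at 0 in all of them. Nodal and Trh were above 0 in all 4 positive cells, against 18 and 12 of the 49 negative cells. Lefty1 was above 0 in 3 positive and 14 negative cells. Lefty2, Tdgf1 and Chac1 were each above 0 in 1 positive cell, against 18, 16 and 12 negative cells. With 1 sample at each time these values have no test.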

How the data were processed

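The values used are TPM of 27723 genes in 768 cells, as deposited by the authors in 1 table. SMART-Seq2 libraries without molecular identifiers were read with 50 bp single-end reads, per the labels' protocols. Builds and tools named in the submitters' processing notes are mm10, bcl2fastq and Picard. No source used here names the aligner or the annotation. Columns sum to 1000000 within rounding, so read depth is unknown.

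Kept cells had 2000 or more genes above 0, and no doublets were called. For each group and time the mean TPM over cells was taken. A gene was tested where its mean over the 3 times was at least 5 TPM and it was above 0 in at least 5% of cells, both regardless of T. Differences are log2(mean + 1), on which the change of low genes is understated. They were tested two-sided with limma 3.58.1 (R 4.3.3), with the time point as a block and a trended eBayes, after a test on simulated data, and T was left out. Shares of cells have exact 95% Clopper-Pearson intervals.

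Genes were named by rule: T, the 20 highest and 10 lowest differences with 1 sign at all 3 times and at least 25% of cells of the higher group above 0, leaving out unnamed models, up to 4 genes per list and members that were 2-fold apart at every time, the 10 most correlated with T, the induced factors, Sox2 and T-box genes. Tmsb4x, Hprt, Actb, Atf4, Asns, Ddit3 and list members outside the rule were chosen after their values were seen. Some genes that the rule named are not reported here. The cells, the genes and the 22 lists were chosen with earlier results of these data known. Of 245 list entries 243 were matched, 4 through RefSeq synonyms. Alternatives changed the pseudocount, averaging, filter, cells, T threshold, times, matching, weights, block and centring. Python 3.11.15, numpy 2.4.6, pandas 2.3.3 and scipy 1.17.1 were used.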

Additional observations from a re-analysis of the deposited data

Results flagged for a closer look

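Of the lists described, the Wnt feedback and target genes had medians of opposite sign at different times. Relative to the median of all genes tested, their median changed by 0.74 between 24 h and 30 h on the log2 scale. The median of the 6 genes was -0.31 at 24 h and 0.25 at 30 h, and 0.14 at 18 h. This difference between times was not tested, since each time point is 1 sample.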

How the results depend on the processing

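The count of genes passing an adjusted p of 0.05 in limma's paired test, 0, changed with the setting. It was 15 with the mean of log2 values over cells, 2 with a filter of 10 TPM and 25% of cells, 8 with all cells, 38 with at least 4000 genes, 25 with T of at least 10 TPM, 41 without the highest cell of each gene, 5 with negative cells matched on the number of genes, 2 after centring on a median of 0, and 8 with T of at least 5 TPM, which was chosen after seeing the data. It was 0 with either pseudocount, no filter, at least 1000 genes, weights by cell number, no time point block, and without 18, 24 or 30 h, where an arm keeps 2 means. Rtn1 passed in 8 of 18 alternatives, Tdgf1 in 7, Lefty2 in 5, Lefty1 in 4 and Nodal in 3. The cause was not tested.

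The 18 genes 2-fold higher at every time became 5 with a pseudocount of 10 TPM, 40 with the mean of log2 values, 31 without a filter, 9 with the stricter filter, 45 with all cells and 28 with matched cells. They were 45 to 69 when 1 time was left out, since fewer times must then meet the rule. The 70 genes lower became 7, 5, 140 and 32 with a pseudocount of 10 TPM, the mean of log2 values, no filter and the stricter filter, and 120, 120 and 125 with T of at least 10 TPM, without the highest cell and with T of at least 5 TPM. They were 159 to 234 when 1 time was left out.

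The Nodal and Bmp median of 1.60 became 2.08 with the mean of log2 values, 0.46 without a filter, 1.04 with all cells and 2.21 with matched cells, and 0.88 to 1.90 when 1 time was left out. The streak median of 1.87 became 2.57 with the mean of log2 values and 2.53 with matched cells. It became 0.50 without a filter and 0.62 with all cells. The pan-neuronal median of -1.46 became -1.09 with a pseudocount of 10 TPM, -0.84 with the mean of log2 values, -1.12 with all cells and -1.79 with T of at least 10 TPM. The core pluripotency median of 0.26 became 0.16 with a pseudocount of 10 TPM, 0.56 with the mean of log2 values, 0.067 with all cells, 0.080 with at least 1000 genes, 0.33 with T of at least 10 TPM, 0.13 without the highest cell, 0.61 with matched cells, 0.32 after centring and 0.15 to 0.21 when 1 time was left out. The Wnt median of -0.18 turned to 0.26 with the mean of log2 values, 0.20 without a filter and 0.32 with all cells. Of 131 named genes tested, 45 changed sign in some alternative. Among the 71 with an unadjusted p under 0.05 (limma, background 8.76%), 2 did so, Dnmt3b and Stmn3. Many named genes were chosen for the size or sign of their difference, and the alternatives reuse the same cells. These counts therefore add no support to the differences.

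The share of positive cells was 25.0% at 18 h when T had to reach 10 TPM, and 19.8% at 24 h and at 30 h over all cells. The gap in genes per cell of 422 was 5292 over all cells and 1125.5 with at least 1000 genes, so that positive cells were mostly deep ones there. No paired analysis was possible because the labels' numbers name single cells, if cells are to be paired by number. The pairs in limma's paired test are group means of 1 time point, with the time point as the block. Zeros in cells may be missed RNA, and the reads behind each value are unknown.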

Other observations

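Some abundant genes were also lower in the positive cells, and all genes in this paragraph were picked after their values were seen. Tmsb4x, which encodes the actin-binding thymosin beta 4, averaged 674 ± 558, 817 ± 824 and 556 ± 544 TPM in positive cells at 18, 24 and 30 h (SD over cells), against 1415 ± 1332, 1759 ± 1460 and 1574 ± 1847 TPM in negative cells. Malat1, a nuclear noncoding RNA, averaged 515, 254 and 272 TPM in positive cells, against 1358, 530 and 644 TPM in negative cells. Both were above 0 in nearly every cell, so their differences of -1.22 and -1.23 (adjusted p 0.127 each, limma) are differences in level. Nnat, an imprinted neuronal gene, had 61.8, 93.1 and 11.3 TPM in positive cells and 35.9, 308 and 547 TPM in negative cells, a sign that changed between 18 h and the later times. Zic2, a zinc finger gene of the epiblast and neural plate, was above 0 in 38 of 58 positive and 40 of 110 negative cells. Msx1, a homeobox gene downstream of Bmp, was above 0 in 16 positive and 14 negative cells. Chrd, which encodes the Bmp antagonist chordin, was above 0 in 13 positive and 35 negative cells.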
